A study of Mus musculus with 13 samples.

Results

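The 10 genes described here encode transcription factors that set up and maintain endothelial identity: the ETS factors Erg, Fli1 and Ets1, the SOXF factors Sox7, Sox17 and Sox18, the hematopoietic and endothelial regulators Tal1 and Gata2, and the forkhead factors Foxf2 and Foxq1. They were chosen by name, with earlier results of these data known, and all 10 were found among the 55416 genes of the count table. All 10 also passed the filter on low counts, which left 22507 genes. Messenger RNA of mouse brain was sequenced in 13 libraries of 4 groups. Knockout mice (KO) were Slco1c1-iCreERT2;Pdcd10fl/fl animals given 4-hydroxytamoxifen (50 µg) at postnatal day 1, and the controls (flox) were Pdcd10fl/fl littermates with the loxP-flanked gene and no Cre recombinase. Mice of both genotypes were kept either at 21% oxygen (normoxia, 3 flox and 3 KO libraries) or at 12% oxygen for 7 days (hypoxia, 3 flox and 4 KO libraries). The Slco1c1 promoter drives the Cre in brain endothelium, but Slco1c1 is also expressed in choroid plexus epithelium. Pdcd10 is also called Ccm3, and its loss gives cerebral cavernous malformations. Whether the flox mice were injected is not clear from the design text, and the age at sampling is not given in the sources used here. Effects of the deletion, the Cre transgene and the injection therefore cannot be told apart.

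ETS factors bind the core sequence GGAA, which is found in the regulatory regions of most genes typical of endothelium, and Erg is among the most restricted to endothelial cells of the family in adult tissue. SOXF factors act with Notch and Wnt signals in arterial and barrier vessels, Tal1 and Gata2 work in a complex with Lmo2 and Ldb1 that is shared with blood progenitors, and Foxf2 and Foxq1 are forkhead factors enriched in brain endothelium, Foxf2 also in pericytes. Fli1, Ets1, Tal1 and Gata2 are also used by blood and immune cells, so that their messenger RNA in whole brain need not come from endothelium alone. In bulk tissue, more cells of a type and more RNA per cell cannot be told apart.

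RefSeq promoter entries (GRCm38.p6 build) matched 4 of the 10 genes, with 8 listed starts between them: 3 for Erg, 2 each for Tal1 and Gata2, and 1 for Foxf2. The first listed start of each of these genes is shown because endothelial factors are known to bind their own and one another's regulatory regions. Each run is the 250 bases before the start, 5′ to 3′ on the gene's strand, with the ETS core GGAA, or its reverse complement TTCC, in capitals.
Erg, the first start (chr16:95586594-95586843, minus strand): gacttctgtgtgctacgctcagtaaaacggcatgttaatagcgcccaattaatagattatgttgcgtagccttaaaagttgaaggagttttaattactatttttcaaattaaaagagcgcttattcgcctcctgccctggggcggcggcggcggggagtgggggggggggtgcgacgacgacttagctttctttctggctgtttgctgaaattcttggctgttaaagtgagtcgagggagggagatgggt
Tal1, the first start (chr4:115056176-115056425, plus strand): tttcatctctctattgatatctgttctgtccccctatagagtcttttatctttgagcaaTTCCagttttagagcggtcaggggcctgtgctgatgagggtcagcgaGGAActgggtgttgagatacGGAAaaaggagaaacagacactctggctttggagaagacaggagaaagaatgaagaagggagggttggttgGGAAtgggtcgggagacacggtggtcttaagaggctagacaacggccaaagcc
Gata2, the first start (chr6:88193641-88193890, plus strand): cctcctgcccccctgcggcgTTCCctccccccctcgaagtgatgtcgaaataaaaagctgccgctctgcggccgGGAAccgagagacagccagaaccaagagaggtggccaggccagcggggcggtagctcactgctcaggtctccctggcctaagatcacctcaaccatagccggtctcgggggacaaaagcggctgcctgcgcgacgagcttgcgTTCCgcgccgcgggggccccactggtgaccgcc
Foxf2 (chr13:31625566-31625815, plus strand): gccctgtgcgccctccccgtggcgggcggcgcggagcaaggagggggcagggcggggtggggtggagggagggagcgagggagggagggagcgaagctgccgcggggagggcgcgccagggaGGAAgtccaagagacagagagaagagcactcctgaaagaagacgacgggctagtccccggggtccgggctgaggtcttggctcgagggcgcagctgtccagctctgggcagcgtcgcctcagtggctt
The windows shown held 0 ETS cores for Erg, 4 for Tal1, 3 for Gata2 and 1 for Foxf2, and the other 4 windows held 1 to 4. A match was common everywhere: 93.4% of the 32851 windows of this length in the table held at least 1 ETS core, and 33.4% held at least 4. Searched on both strands, the SOX core ACAAT was present in 1 of the 8 windows, against 27.7% of all windows, and the GATA core GATAA in 2, against 22.6%. The forkhead core AAACA was present in 4 of the 8, against 46.4%. The E-box CANNTG, the class of site that Tal1 and its partners recognise, was present in 2, against 66.2%. These are matches of letters in windows of another build than the one used for the counts, and they do not show that any factor binds there.

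Libraries held between 42090437 and 71216636 counts, and the 10 genes held between 81 and 1743 counts each per library. Pdcd10 itself had 17.1 ± 0.799 CPM (counts scaled to library size) in normoxic flox mice and 16.9 ± 1.07 in normoxic KO mice (SD, n = 3 per group). The hypoxic means were 17.4 ± 0.194 CPM for flox (n = 3) and 16.4 ± 1.09 for KO (n = 4). Its edgeR adjusted p was 0.962 and 0.47, so that these libraries give no check of the labelled genotypes. Markers of endothelium, the labelled site of the deletion, were present in every library, with a summed level of 20 markers between 293 and 1017 CPM. All libraries are labelled male, but 4 of them (flox normoxia 3, KO normoxia 3, KO hypoxia 3 and KO hypoxia 4) held between 25181 and 53001 counts of Xist and at most 1 count of Y-linked genes. A pair of libraries also stood apart in other markers. KO hypoxia 1 had the highest summed level of erythroid markers, 17402 CPM against 3409 to 4169 CPM in the other KO libraries in hypoxia, and of endothelial markers, 1017 against 698 to 787 CPM. KO normoxia 2 had 23.0 CPM of choroid plexus markers, against 324 to 530 CPM in the other 12 libraries. Without KO normoxia 2, the log2 fold changes of the 10 factors between genotypes in normoxia lay between 0.12 and 0.92, and 4 factors passed. Without KO hypoxia 1, those in hypoxia lay between 0.45 and 1.14, and 7 passed, with Sox7 gained and Sox17 lost.

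Set per gene length, Sox18 was the most abundant of the 10 factors and Tal1 the least. The deposited RPKM, which divide counts by library total and gene length, averaged 6.62 for Sox18 over the 13 libraries, 2.51 for Foxf2, 2.10 for Erg, 2.08 for Ets1, 1.91 for Sox17 and 1.59 for Fli1. Gata2 followed at 1.08, Foxq1 at 0.740, Sox7 at 0.737 and Tal1 at 0.682. Sox18 alone kept a clear lead: its lowest library, at 3.54 RPKM, lay above the highest library of each other factor except Erg, whose highest was at 3.86. The RPKM of Foxf2 in single libraries ran from 1.67 to 3.39 and that of Erg from 1.01 to 3.86, so these neighbours in the order overlapped.

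**Figure D1:**
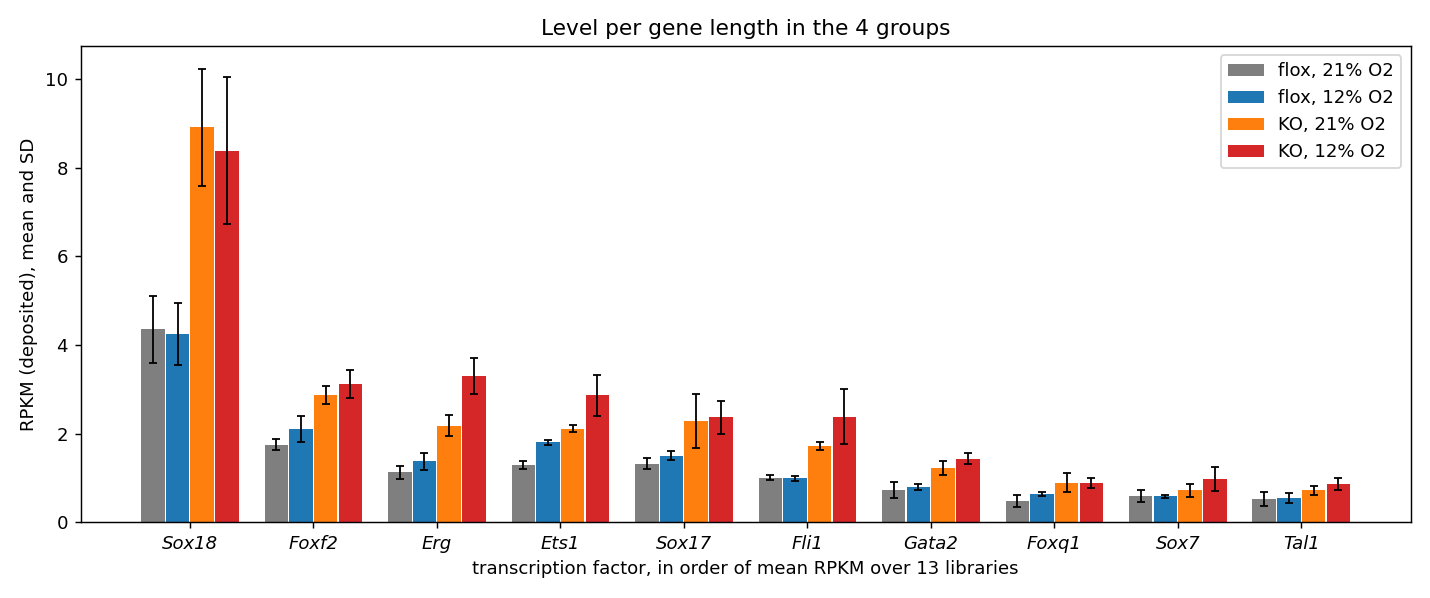
Deposited RPKM of the 10 factors (vertical axis) in the 4 groups, as bars of the mean with SD whiskers (3 libraries per group, 4 for KO at 12% O2). Sox18 stands highest in every group, at 4.36 in flox and 8.91 in KO in normoxia, and the highest mean of another factor is that of Erg in KO in hypoxia, at 3.30.

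The first question was whether loss of Pdcd10 in brain endothelium went with another level of the factors that define this cell type. In normoxia, 8 of the 10 factors rose in KO and none fell, by 1.63-fold (Ets1) to 2.05-fold (Sox18). Sox7 and Tal1 did not pass the test. Of all 22507 genes, 1.96% rose and 0.369% fell by the same rule (edgeR quasi-likelihood test, adjusted p under 0.05). The median log2 fold change was 0.76 over the 10 factors and -0.0036 over all genes. In hypoxia, 7 of the 10 rose in KO and none fell, against 6.78% of all genes rising and 2.28% falling, and the median log2 fold change was 0.67, against -0.0092 over all genes. Sox7, Tal1 and Foxq1 did not pass there. KO and flox libraries did not overlap, KO higher, for 8 factors in normoxia, where this held for 10.5% of all genes, and for all 10 in hypoxia, where it held for 11.5%. With 1 library left out, between 4 and 7 of the factors passed in normoxia and between 5 and 8 in hypoxia. In normoxia 4 passed without flox normoxia 1, KO normoxia 1 or KO normoxia 2, and 5 without flox normoxia 2. Among the 9 libraries with Y-linked transcripts, a choice made after the data were seen, 6 passed in normoxia and 6 in hypoxia.

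**Figure D2:**
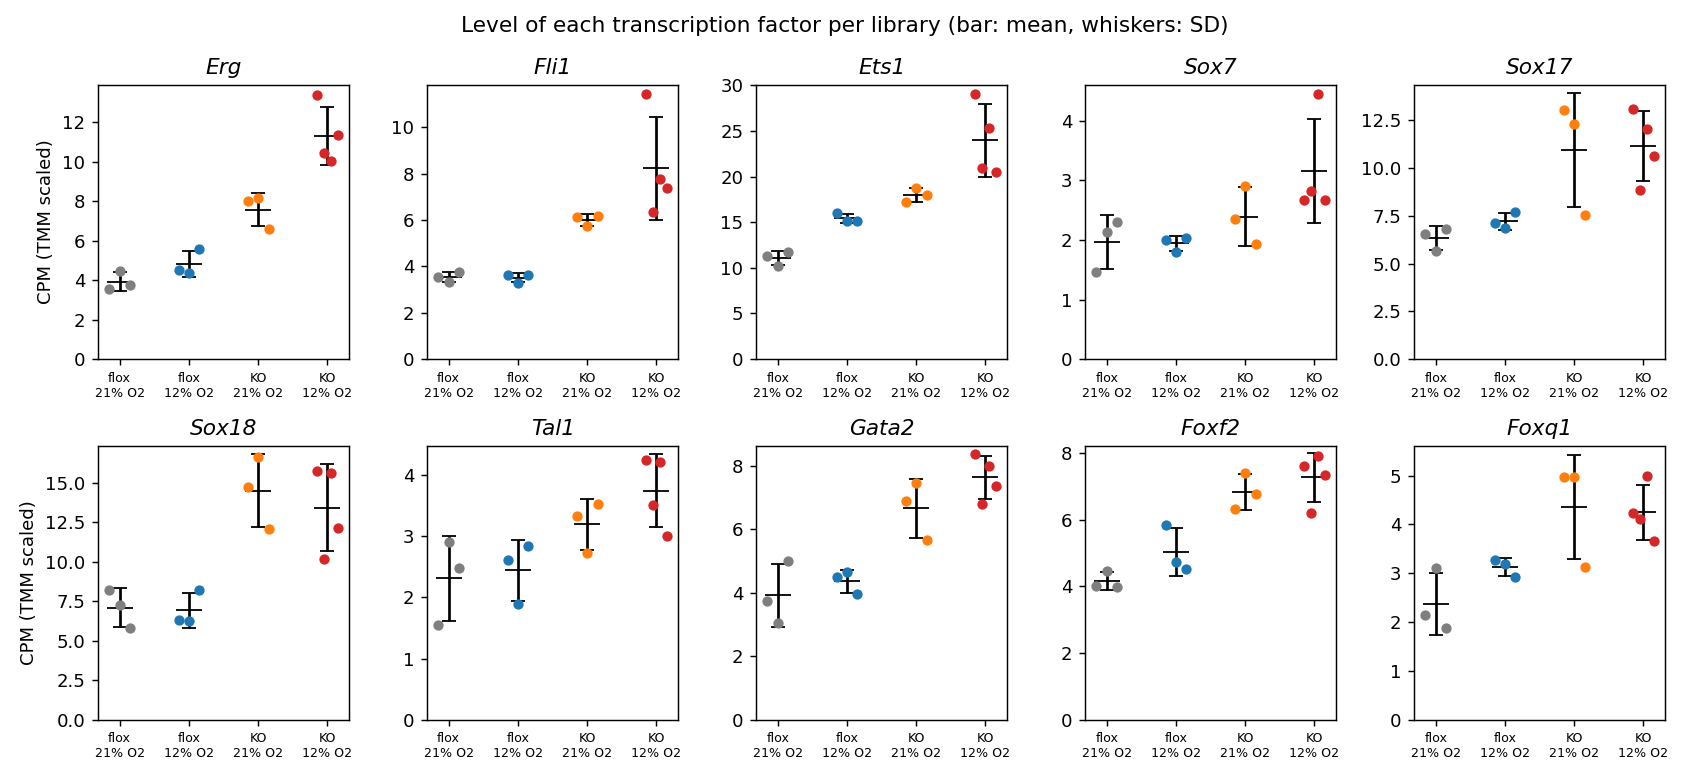
Level of each factor in CPM (vertical axis, scaled by TMM) in each of the 13 libraries, by genotype and oxygen. Each point is a library, the bar is the group mean and whiskers show the SD. Every KO library lies above every flox library of the same oxygen for all factors but Sox7 and Tal1 at 21% O2, where the genotypes overlap.

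Of the ETS factors, all 3 rose in KO under both oxygen levels. Erg, which keeps endothelial junction and identity genes active, was at 3.54, 4.45 and 3.77 CPM in flox and 8.003, 8.15 and 6.59 CPM in KO in normoxia. In hypoxia it was at 4.50, 4.37 and 5.57 CPM in flox and 13.4, 10.5, 10.04 and 11.3 CPM in KO. Every KO library thus lay above every flox library of either oxygen level. The log2 fold change of Erg was 0.96 ± 0.14 in normoxia (SE, edgeR adjusted p = 0.00118) and 1.24 ± 0.13 in hypoxia (edgeR adjusted p = 2.96e-05), the largest of the 10 in hypoxia.

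Fli1, the closest relative of Erg and a regulator of vessel stability and of platelet precursors, was at 3.52, 3.31 and 3.74 CPM in flox and 6.12, 5.72 and 6.15 CPM in KO in normoxia. In hypoxia its level was 3.63, 3.28 and 3.61 CPM in flox and 11.4, 6.34, 7.75 and 7.39 CPM in KO. Flox libraries stayed within a narrow band at both oxygen levels, and KO hypoxia 1 stood above the other KO libraries. The log2 fold change was 0.76 ± 0.17 in normoxia (edgeR adjusted p = 0.0229) and 1.23 ± 0.16 in hypoxia (edgeR adjusted p = 0.000157). Without KO hypoxia 1 the value in hypoxia was 1.03. The call in normoxia was lost without flox normoxia 1, flox normoxia 2 or any of the 3 KO normoxia libraries, with edgeR adjusted p from 0.0549 to 0.0883, and among the 9 libraries with Y-linked transcripts (0.132). Microglia also express Fli1: 0 of 15 microglial markers passed the edgeR test in normoxia (8 at an unadjusted p under 0.05 and 1 by DESeq2), and 13 of 15 rose in hypoxia. Their summed level was 411 to 436 CPM in flox and 487 to 514 CPM in KO in normoxia, and 421 to 440 CPM in flox and 520 to 711 CPM in KO in hypoxia. The part of microglia in the Fli1 difference was not tested.

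Ets1, an ETS factor of endothelium, lymphocytes and growing vessels, had the highest CPM of the 10. Its level was 11.3, 10.2 and 11.7 CPM in flox and 17.3, 18.7 and 18.0 CPM in KO in normoxia, and 16.0, 15.2 and 15.1 CPM in flox and 29.1, 21.0, 25.3 and 20.5 CPM in KO in hypoxia. The libraries of the 4 groups did not overlap, with flox in normoxia lowest, then flox in hypoxia, KO in normoxia and KO in hypoxia. No step between neighbours in this order passed (edgeR adjusted p = 0.27, 0.408 and 0.0651, from the lowest up). The share of all genes with 4 groups that do not overlap was not computed. The log2 fold change between genotypes was 0.70 ± 0.11 in normoxia (edgeR adjusted p = 0.00271) and 0.64 ± 0.10 in hypoxia (edgeR adjusted p = 0.000903). The summed level of 11 lymphocyte markers was 3.95 to 9.002 CPM. Of these, Cd4 reached 6.45 CPM and the other 10 at most 1.59 CPM (Lck), with Cd3e, a T cell receptor subunit, at 10 counts or fewer. Of 8 lymphocyte markers tested, 2 rose in normoxia and 1 in hypoxia. Their part in the Ets1 difference was not tested.

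The SOXF factors were less uniform, with Sox17 and Sox18 higher in KO at both oxygen levels and Sox7 called at neither. Sox17, which drives arterial identity and Wnt-dependent barrier maturation, was at 6.53, 5.65 and 6.82 CPM in flox and 13.04, 12.3 and 7.54 CPM in KO in normoxia. In hypoxia Sox17 was at 7.10, 6.84 and 7.72 CPM in flox and 13.1, 8.83, 12.0 and 10.6 CPM in KO. KO normoxia 3 lay just above the normoxic flox libraries, well below the other KO libraries of its group, and below flox hypoxia 3. Within an oxygen level the genotypes did not overlap. The Sox17 log2 fold change was 0.79 ± 0.17 in normoxia (edgeR adjusted p = 0.0239) and 0.63 ± 0.17 in hypoxia (edgeR adjusted p = 0.0245). Both calls were sensitive to single libraries. In normoxia it was lost without flox normoxia 1 or 2 or KO normoxia 1 or 2 (edgeR adjusted p from 0.0748 to 0.125). In hypoxia the call was lost without any of the 3 flox hypoxia libraries, KO hypoxia 1 or KO hypoxia 3 (edgeR adjusted p from 0.0549 to 0.109).

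Sox18, a factor of vessel and lymphatic development, was at 8.24, 7.26 and 5.81 CPM in flox and 14.8, 16.7 and 12.1 CPM in KO in normoxia. Its level in hypoxia was 6.33, 6.24 and 8.22 CPM in flox and 15.8, 10.2, 15.6 and 12.1 CPM in KO. All KO libraries lay above all flox libraries, and the oxygen levels overlapped within each genotype. The fitted log2 fold change was 1.04 ± 0.17 in normoxia (edgeR adjusted p = 0.00433), the largest of the 10 there, and 0.96 ± 0.17 in hypoxia (edgeR adjusted p = 0.00166).

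Sox7, the SOXF factor that acts early in the vessel and blood lineages, was at 1.45, 2.14 and 2.30 CPM in flox and 2.35, 2.91 and 1.93 CPM in KO in normoxia. In hypoxia it was at 2.01, 1.80 and 2.03 CPM in flox and 2.67, 2.83, 4.46 and 2.67 CPM in KO. The genotypes overlapped in normoxia and did not overlap in hypoxia, where KO hypoxia 3 stood far above the other libraries. Between genotypes the log2 fold change was 0.29 ± 0.23 in normoxia (edgeR adjusted p = 0.645) and 0.70 ± 0.21 in hypoxia (edgeR adjusted p = 0.0524). Without KO hypoxia 3 the value in hypoxia was 0.49 (edgeR adjusted p = 0.149), and among the 9 libraries with Y-linked transcripts it was 0.50 (edgeR adjusted p = 0.184). It passed the threshold without KO hypoxia 1, 2 or 4 (edgeR adjusted p from 0.0470 to 0.0492) and with DESeq2 (adjusted p = 0.0203).

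Tal1 and Gata2 differed from each other in their calls. Tal1, a helix-loop-helix factor that specifies blood and endothelial precursors, was at 1.54, 2.90 and 2.48 CPM in flox and 3.32, 2.72 and 3.52 CPM in KO in normoxia. In hypoxia Tal1 was at 2.60, 1.89 and 2.84 CPM in flox and 4.24, 3.51, 4.21 and 3.002 CPM in KO. The genotypes overlapped in normoxia but not in hypoxia, where the lowest KO library lay close to the highest flox library. On the log2 scale the fold change was 0.46 ± 0.22 in normoxia (edgeR adjusted p = 0.371) and 0.62 ± 0.20 in hypoxia (edgeR adjusted p = 0.0721). With DESeq2 the value in hypoxia passed the threshold (adjusted p = 0.0301).

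Gata2, a zinc finger factor of endothelium and hematopoietic stem cells, was at 3.73, 3.05 and 4.999 CPM in flox and 6.90, 7.45 and 5.65 CPM in KO in normoxia. Its level in hypoxia was 4.50, 4.65 and 3.97 CPM in flox and 8.37, 6.81, 8.01 and 7.37 CPM in KO. Every KO library lay above every flox library. The log2 fold change was 0.76 ± 0.16 in normoxia (edgeR adjusted p = 0.0154) and 0.81 ± 0.15 in hypoxia (edgeR adjusted p = 0.00248). The call in normoxia was lost without flox normoxia 1 or 2 or KO normoxia 1 or 2 (edgeR adjusted p from 0.0626 to 0.0811).

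Erythroid markers were set beside Tal1 and Gata2, which act in red cell precursors. By edgeR, Gata2 was called higher in KO at both oxygen levels and Tal1 at neither. Of 8 erythroid markers tested, 5 rose in normoxia and 7 in hypoxia. Their summed level was 140 to 262 CPM in flox and 974 to 1701 CPM in KO in normoxia, and 450 to 671 CPM in flox and 3409 to 17402 CPM in KO in hypoxia. Among them the globin gene Hba-a1 reached 5305 CPM, and Alas2, the erythroid enzyme of heme synthesis, reached 190.5 CPM. The transcription factors Gata1 and Klf1 had at most 6 and 20 counts in a library. The part of red cells and their precursors in the Tal1 and Gata2 differences was not tested. Without KO hypoxia 1, the library with most erythroid transcripts, the log2 fold change in hypoxia was 0.76 for Gata2 and 0.56 for Tal1. Both genes also mark GABA neurons of the midbrain, of whose 8 markers the summed level was 2.77 to 10.5 CPM. Six3 reached 7.48 CPM, Otx2 2.34 CPM and each of the others at most 0.479 CPM (Lhx1), with Gata3 at 16 counts or fewer. Otx2 is also in the list of choroid plexus markers, so the sum is no measure of midbrain GABA neurons alone. Of the 6 midbrain markers tested, 0 passed between genotypes by edgeR or DESeq2, with 0 at an unadjusted p under 0.05 in normoxia and 1 in hypoxia. The part of these neurons in the Tal1 and Gata2 differences was not tested.

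Known partners and relatives of Tal1 and Gata2 are named here after their values were seen. Lmo2, the bridging subunit of the complex, had 11.9 ± 0.508 CPM in normoxic flox and 11.6 ± 0.340 in normoxic KO mice (SD, n = 3 per group), with a log2 fold change of -0.04 ± 0.08 there and -0.03 ± 0.07 in hypoxia. Ldb1, the scaffold subunit, had log2 fold changes of -0.06 ± 0.04 and -0.05 ± 0.04. Neither was called, and both genes are expressed well beyond endothelium. Lyl1, the close relative of Tal1, had a log2 fold change of 0.24 ± 0.18 in normoxia, which did not pass, and rose by 0.75 ± 0.17 in hypoxia (edgeR adjusted p = 0.0132).

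Both forkhead factors rose in KO in normoxia, and Foxf2 also in hypoxia. Foxf2, which is needed for the blood-brain barrier, was at 4.02, 4.46 and 3.98 CPM in flox and 6.31, 7.40 and 6.76 CPM in KO in normoxia. In hypoxia Foxf2 was at 5.85, 4.74 and 4.52 CPM in flox and 7.62, 6.20, 7.90 and 7.35 CPM in KO. The lowest KO library in hypoxia lay just above the highest flox library. The Foxf2 log2 fold change was 0.72 ± 0.12 in normoxia (edgeR adjusted p = 0.00434) and 0.53 ± 0.11 in hypoxia (edgeR adjusted p = 0.0078). Without flox hypoxia 2 the call in hypoxia was lost (edgeR adjusted p = 0.0512), and among the 9 libraries with Y-linked transcripts it was lost in both (edgeR adjusted p = 0.0687 in normoxia and 0.102 in hypoxia). Pericytes also express Foxf2, and 8 of 12 pericyte markers rose in normoxia (3 without KO normoxia 2) and 10 of 12 in hypoxia. Their summed level was 222 to 258 CPM in flox and 383 to 409 CPM in KO in normoxia, and 293 to 299 CPM in flox and 446 to 587 CPM in KO in hypoxia. The part of pericytes in the Foxf2 difference was not tested.

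Foxq1, a forkhead factor enriched in brain capillaries, was at 2.14, 3.10 and 1.89 CPM in flox and 4.98, 4.97 and 3.12 CPM in KO in normoxia. In hypoxia it was at 3.28, 3.19 and 2.91 CPM in flox and 4.24, 4.11, 4.99 and 3.65 CPM in KO. KO normoxia 3 lay just above the highest flox library of its oxygen level and below the flox hypoxia 1 and 2 libraries. The fitted log2 fold change was 0.88 ± 0.20 in normoxia (edgeR adjusted p = 0.027) and 0.44 ± 0.19 in hypoxia (edgeR adjusted p = 0.164). The call in normoxia was lost without flox normoxia 1 or 3 or KO normoxia 1 or 2 (edgeR adjusted p from 0.118 to 0.128), and in a fit of only the libraries compared (adjusted p = 0.0740).

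The second question was whether 12% oxygen changed the factors. In flox mice 0 of the 10 passed the edgeR test, where 5 genes of all passed (0.0222%, each higher). The median log2 fold change was 0.17 over the 10 factors and -0.0018 over all genes. At an unadjusted p under 0.05 there were 2 factors, Ets1 and Foxf2, against 1497 of all 22507 genes. Ets1 had the largest value, 0.48 ± 0.11 (edgeR adjusted p = 0.27), and DESeq2 called it (adjusted p = 0.0213). For Ets1, Sox17 and Foxf2 the hypoxic flox libraries lay above the normoxic ones without overlap, as for 6.56% of all genes. Foxq1 followed at 0.40 ± 0.20, Erg at 0.29 ± 0.14 and Foxf2 at 0.28 ± 0.12, while Fli1 (-0.01 ± 0.17), Sox7 (-0.02 ± 0.23) and Sox18 (-0.04 ± 0.18) lay near 0.

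In KO mice, Erg rose with hypoxia by 0.57 ± 0.12 on the log2 scale (edgeR adjusted p = 0.0429), from 7.58 ± 0.860 CPM (SD, n = 3) to 11.3 ± 1.49 CPM (n = 4), and no other factor passed. Of all genes, 0.622% rose by this rule. Every KO hypoxia library lay above every KO normoxia library for Erg, Fli1 and Ets1, the 3 ETS factors, where this held for 6.59% of all genes, and the oxygen levels overlapped for the other 7. Endothelial markers rose in this comparison too: 8 of 20 passed, with a median log2 fold change of 0.56. Whether the ETS factors differed from these markers with hypoxia was not tested. Fli1 had a log2 fold change of 0.46 ± 0.15 (edgeR adjusted p = 0.164) and Ets1 of 0.42 ± 0.10 (edgeR adjusted p = 0.0651). The SOXF factors Sox17 (0.02 ± 0.16) and Sox18 (-0.11 ± 0.16) lay near 0, as did Foxf2 (0.09 ± 0.11) and Foxq1 (-0.04 ± 0.18), while Sox7 was at 0.40 ± 0.21, Tal1 at 0.24 ± 0.20 and Gata2 at 0.19 ± 0.14. Sox7 was at 0.18 without KO hypoxia 3, and Gata2 at 0.087 without KO normoxia 3. The Erg call was lost without any of the 3 KO normoxia libraries, KO hypoxia 1 or KO hypoxia 4 (edgeR adjusted p from 0.0616 to 0.165). It was also lost in a fit of only the libraries compared (0.0966), with the replicate number as a block (0.0883) and among the 9 libraries with Y-linked transcripts (0.144). Without KO hypoxia 1 the values were 0.48 for Erg, 0.26 for Fli1 and 0.31 for Ets1. Ets1 passed without KO hypoxia 2 or 4 (edgeR adjusted p from 0.0283 to 0.0317) and with DESeq2 (adjusted p = 0.00626).

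Whether the genotype effect differed between oxygen levels was tested as an interaction, in which 0 of the 10 factors and 0 of all genes passed by edgeR (0% called). None of the 10 had an unadjusted p under 0.05, against 1635 of all genes, and DESeq2 called 5 genes. The largest differences between the genotype effects, hypoxia minus normoxia, were 0.47 ± 0.23 for Fli1 (edgeR adjusted p = 0.687), -0.44 ± 0.27 for Foxq1 (0.749) and 0.42 ± 0.31 for Sox7 (0.793). The Fli1 value was 0.27 without KO hypoxia 1, that of Sox7 0.20 without KO hypoxia 3, and that of Foxq1 -0.68 without flox normoxia 2. That Foxq1 passed between genotypes in normoxia and not in hypoxia is therefore not a tested difference, nor is the larger value of Fli1 in hypoxia.

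**Figure D3:**
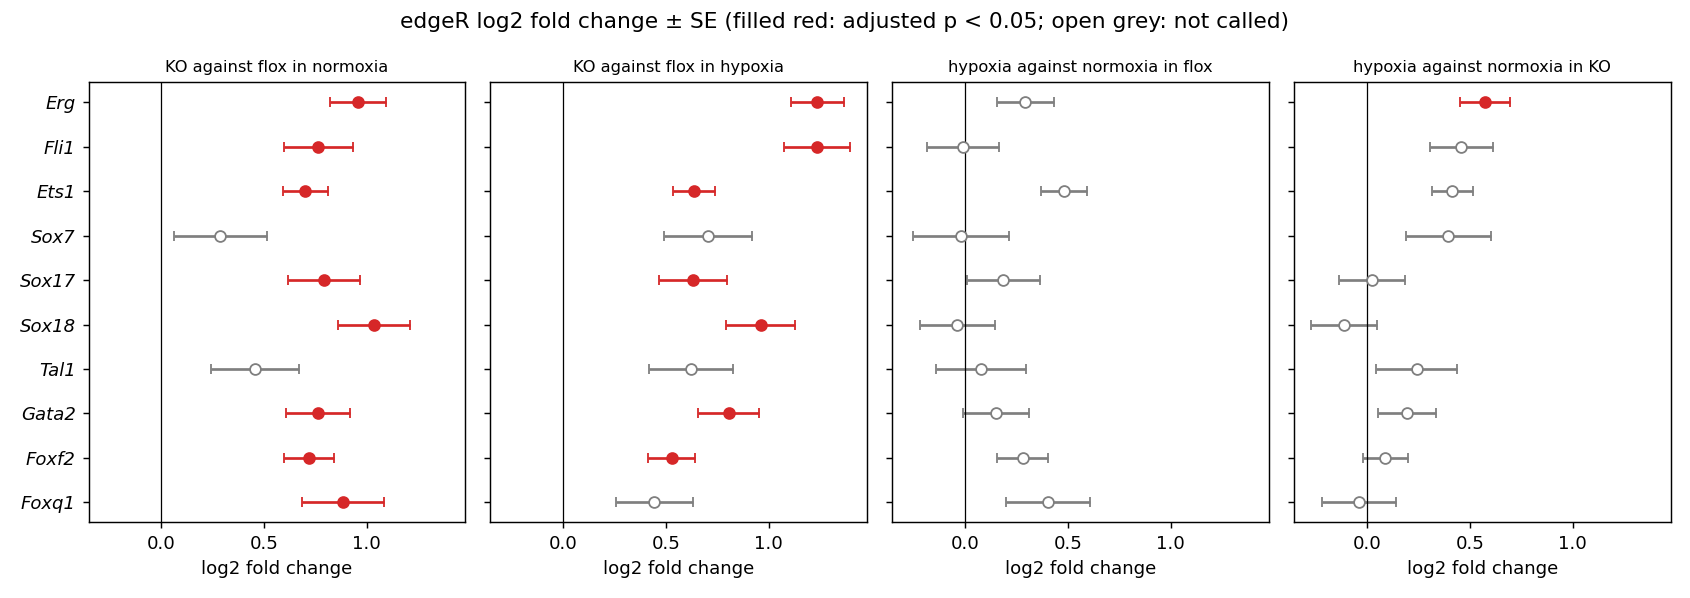
Log2 fold change of each factor with its SE (horizontal axis) in 4 comparisons, from edgeR over all 13 libraries. Filled red points passed an adjusted p of 0.05 and open grey points did not. Between genotypes 8 factors passed in normoxia and 7 in hypoxia, all to the right of 0. Between oxygen levels Erg passed in KO, at 0.57, a call lost on leaving out any of 5 libraries, and none passed in flox.

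Ordered by mean level, both KO groups lay above both flox groups for all 10 factors. The share of all genes with this order was not computed. Nor was the share of genes whose KO libraries all lie above all flox libraries. The step from the higher flox group to the lower KO group passed the test for Erg (flox in hypoxia to KO in normoxia, 4.81 to 7.58 CPM, edgeR adjusted p = 0.0203), for Fli1 (flox in normoxia to KO in normoxia, 3.52 to 5.996 CPM, 0.0229) and for Sox18 (flox in normoxia to KO in hypoxia, 7.10 to 13.4 CPM, 0.00147). Erg was also higher in KO in hypoxia than in KO in normoxia, as given above. For the other 7 no neighbouring groups in the order passed, with edgeR adjusted p from 0.0638 for Gata2 upward at this step. KO in normoxia set against flox in hypoxia gave 3 factors higher in KO, where 1.49% of all genes were higher. The log2 fold change was 0.66 ± 0.14 for Erg, 0.77 ± 0.17 for Fli1 (edgeR adjusted p = 0.0284) and 1.07 ± 0.18 for Sox18 (edgeR adjusted p = 0.0054). The Fli1 call there was lost without any 1 of the 6 libraries compared (edgeR adjusted p from 0.0636 to 0.147). The call of Erg was lost without KO normoxia 1 or 2 or flox hypoxia 1 or 2 (0.0810 to 0.126), and that of Sox18 without flox hypoxia 2 (0.0533). Sox17 passed there without KO normoxia 3 (0.81, edgeR adjusted p = 0.0118).

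Since endothelial transcripts rose as a whole, each factor was also set against the mean log2 CPM of 20 pan-endothelial markers of its own library. In normoxia that mean was 3.17 ± 0.0536 for flox and 4.14 ± 0.0879 for KO (SD, n = 3 per group). In hypoxia it was 3.59 ± 0.0677 for flox (n = 3) and 4.66 ± 0.286 for KO (n = 4). Of the markers, 17 of 20 rose in KO in normoxia and 20 of 20 in hypoxia. On this scale a gene that did not follow the markers falls, and limma called 87.6% of all genes lower in KO in normoxia and 87% in hypoxia. Adjusted p-values are then close to unadjusted ones. Of the 10 factors, 2 were called lower in normoxia and 5 in hypoxia, and none was called higher, where 0.391% and 0.969% of all genes were.

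Erg, Sox18 and Fli1 were not called against the markers at either oxygen level. The Erg difference, KO minus flox, was -0.03 in normoxia (95% confidence interval -0.40 to 0.34) and 0.16 in hypoxia (-0.18 to 0.51). For Sox18 it was 0.06 (-0.30 to 0.41) and -0.12 (-0.46 to 0.21), and for Fli1 -0.21 (-0.59 to 0.17) and 0.12 (-0.23 to 0.48). These intervals include 0 but are wide, so that this test could not detect a shortfall or excess of about the size of their limits. Here limma draws the spread of each gene toward that of all genes tested. The widths therefore do not measure the spread of each factor alone, and the same holds for the other values set against the markers.

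Sox7 and Tal1, the 2 factors not called between genotypes in normoxia, were lower than the markers there. Relative to the markers, Sox7 was at -2.53, -2.09 and -1.94 log2 units in flox and -2.92, -2.64 and -3.07 in KO in normoxia, with no overlap, as for 87.7% of all genes on this scale. The difference was -0.69 ± 0.23 (SE, limma adjusted p = 0.00459), and -0.41 ± 0.22 in hypoxia (limma adjusted p = 0.0677). The latter passed without KO hypoxia 2 (-0.46, limma adjusted p = 0.0494) or KO hypoxia 3 (-0.58, limma adjusted p = 0.0197). The Tal1 difference was -0.48 ± 0.22 in normoxia (limma adjusted p = 0.0376) and -0.45 ± 0.21 in hypoxia (limma adjusted p = 0.0348), and its libraries overlapped in both. Each Tal1 call was lost on leaving out any of 4 libraries, among them KO normoxia 1 and 2 in normoxia and KO hypoxia 1 and 4 in hypoxia, with limma adjusted p up to 0.230.

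In hypoxia both forkhead factors, Ets1 and Sox17 were also lower than the markers in KO. Foxq1 was at -1.90, -1.82 and -2.07 log2 units in flox and -2.95, -2.33, -2.35 and -2.63 in KO, a difference of -0.64 ± 0.20 (limma adjusted p = 0.00225). Foxf2 was at -1.07, -1.26 and -1.45 in flox and -2.11, -1.74, -1.70 and -1.63 in KO, a difference of -0.53 ± 0.18 (limma adjusted p = 0.00418). All KO libraries lay below all flox libraries for both, as they did for 83% of all genes on this scale. The differences of Ets1 and Sox17 were -0.45 ± 0.16 (limma adjusted p = 0.00687) and -0.45 ± 0.17 (0.0109), also without overlap. In normoxia the values of these 4 were -0.11 (Foxq1), -0.26 (Foxf2), -0.27 (Ets1) and -0.22 (Sox17), none called. Gata2 was at -0.19 ± 0.19 in normoxia and -0.26 ± 0.18 in hypoxia, neither called. Whether these differences from the markers differ between oxygen levels was not tested. The scale sums transcripts of all cells, so it does not give a level per endothelial cell.

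**Figure D4:**
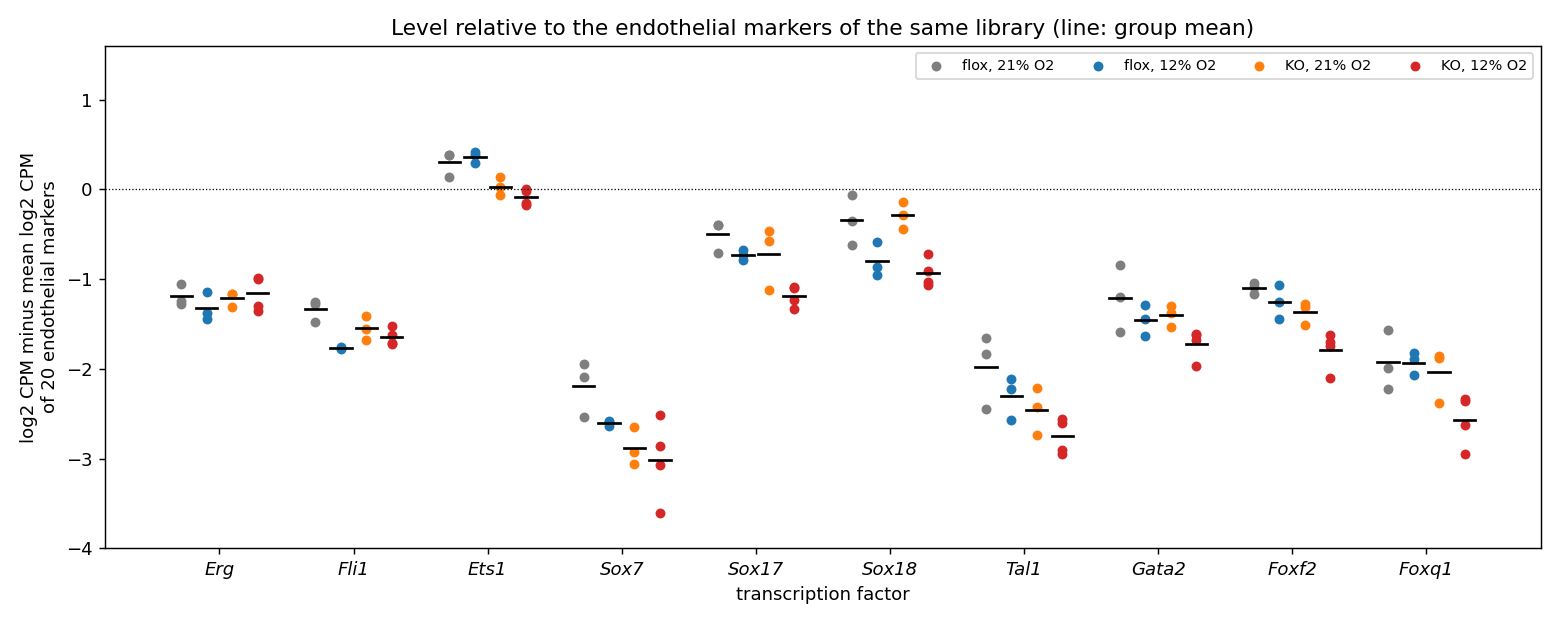
Log2 CPM of each factor minus the mean log2 CPM of 20 endothelial markers of the same library (vertical axis), with points for libraries and lines for group means. Erg lies between -1.45 and -0.99 in the 4 groups, with genotypes that overlap at both oxygen levels, whereas Foxq1, Foxf2, Ets1 and Sox17 in KO at 12% O2 lie below flox at 12% O2.

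Genes reported elsewhere as targets of these factors were examined from a list of 22, of which 13 are also in the list of 20 endothelial markers (59.1% of the targets and 65% of the markers). In KO 16 rose in normoxia (median log2 fold change 0.94) and 20 in hypoxia (1.05), and none fell. The counts were 12 without KO normoxia 2 and 20 without KO hypoxia 1. Vwf, the von Willebrand factor, had the largest values, 1.84 ± 0.30 in normoxia and 2.01 ± 0.29 in hypoxia. Icam2, an adhesion molecule and known Erg target, rose by 1.59 ± 0.21 and 1.89 ± 0.20, Cldn5, a tight junction protein, by 1.52 ± 0.14 and 1.33 ± 0.13, and Nos3, the endothelial nitric oxide synthase, by 1.44 ± 0.13 and 1.51 ± 0.12. The 4 thus had larger log2 fold changes than any of the 10 factors, a difference that was not tested. The Wnt receptor Fzd4 (-0.12 ± 0.14 and 0.34 ± 0.13) and Notch1 (-0.01 ± 0.09 and 0.13 ± 0.09), both also expressed outside endothelium, were not called. With hypoxia, 1 target rose in flox (Kdr, 0.84) and 7 in KO, among them Angpt2, a vessel-destabilising ligand, by 1.71 and Pecam1 by 0.83.

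Other transcription factors with known roles in vessels were examined from a list of 40, without a test of their difference from the 10. Of these, 36 passed the count filter, and Etv2, Gata4, Gata6 and Meox2 did not. In normoxia 13 of the 36 rose in KO and 1 fell, with a median log2 fold change of 0.29. In hypoxia 20 rose, with a median of 0.48. The counts that rose were 6 without KO normoxia 2 and 14 without KO hypoxia 1. The largest values in normoxia were those of Klf4, a flow-responsive factor (1.45 ± 0.25, from 8.50 ± 3.29 to 23.4 ± 2.48 CPM, n = 3 each), Foxl2 (1.28 ± 0.29), Tbx1 (1.24 ± 0.30) and Bcl6b (1.15 ± 0.20), an endothelial repressor. Elf4 (0.72 ± 0.26) and Meox1 (0.47 ± 0.21) did not pass there. In hypoxia Bcl6b had 1.67 ± 0.19, Klf4 1.65 ± 0.24, Meox1 1.39 ± 0.19 and the ETS factor Elf4 1.31 ± 0.25, while Foxc2 (0.93 ± 0.35) and Foxl2 (0.87 ± 0.27) did not pass.

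The gene of this list that fell in KO in normoxia was Prox1, the lymphatic regulator that is also strongly expressed in neurons, by 0.63 ± 0.10 on the log2 scale (46.9 ± 6.998 CPM in flox and 30.2 ± 2.14 CPM in KO, n = 3 each). With hypoxia in flox the median over the 36 was 0.07, and Klf2 (0.74 ± 0.24) and Foxl2 (0.41 ± 0.30) had the largest values, neither called. In KO hypoxia raised Meox1, a homeobox factor (1.28 ± 0.18), and lowered Mef2c, which neurons also express strongly, by 0.24 ± 0.05, with Klf2 (0.81 ± 0.22) and Bcl6b (0.70 ± 0.18) not called.

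Across the 13 libraries, log2 CPM of the 10 factors correlated with the mean of the endothelial markers at Pearson's r from 0.728 (Sox7) to 0.976 (Erg). These values describe libraries that share the group differences above. After subtracting group means, r ranged from 0.191 for Sox7 to 0.889 for Fli1, with Ets1 at 0.810 and the others between 0.318 (Foxq1) and 0.656 (Sox18). Among the 45 pairs of factors the median r was 0.794, from 0.620 for Sox17 and Tal1 to 0.938 for Erg and Fli1. After subtracting group means the median was 0.345, from -0.18 for Tal1 and Gata2 to 0.838 for Fli1 and Ets1. KO hypoxia 1 had the highest level of both of these genes.

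The genes whose log2 CPM followed each factor most closely over the 13 libraries were named by Pearson's r among 13861 genes. For Erg these were Marveld1 (0.986), the adhesion molecule Icam2 (0.985) and Tek, the angiopoietin receptor (0.984). For Fli1 they were Pros1, the anticoagulant protein S (0.995), Emp1 (0.991) and Msn, a membrane linker (0.990), and for Ets1 they were Esam, an endothelial adhesion molecule (0.979), Tgfb1 (0.978) and the VEGF receptor Kdr (0.978). Sox17 and Sox18 shared Ly6e (0.958 and 0.931), and Sox18 was also followed by Afap1l2 (0.937) and Thbd, the thrombomodulin gene (0.935). Gata2 was followed by Foxf1 (0.968) and Orai1 (0.956), Foxf2 by AU021092 (0.968), Rhbdf2 (0.966) and Slc52a3 (0.959), and Foxq1 by Rab5a (0.923), the Notch ligand Jag1 (0.907) and the brain capillary transporter Slco1a4 (0.903). The closest genes to Sox7 (Elovl5, 0.902) and Tal1 (Rsad2, 0.928) had lower values than those of the ETS factors, as did the closest genes to all the other factors. For Sox17 the next were Tm6sf1 and Rab5b (0.922 each). These r were picked as the highest of many, over libraries that share the group differences. After subtracting group means, r was lower for each gene named, from 0.593 (Slc52a3 with Foxf2) to 0.972 (Pros1 with Fli1).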

How the data were processed

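The authors deposited raw counts per gene, and RPKM values that equal these counts per library total and gene length, with no composition factor. Per the submitters' processing notes HISAT2, edgeR and GRCm39 were used, with no version or role stated, and per the labels' protocols the mRNA kit was stranded. For the counting, strand setting, annotation and filters are not given in the sources used. Groups and replicate numbers came from sample titles. The labels name no animal per library, so p-values measure only the spread between these libraries, which may be technical. Counts of libraries within a group differed by more than sampling noise (lowest chi-square over its degrees of freedom, 4.44), so each library was used as 1 replicate.

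Tests on the deposited counts ran in R 4.3.3 with edgeR 4.0.16: filterByExpr, TMM scaling, 1 mean per group over all 13 libraries, the quasi-likelihood test, and Benjamini-Hochberg adjustment over 22507 genes at 0.05. The tested genes held at least 99.95% of each library's counts. CPM values are scaled by TMM. Levels relative to endothelial markers used limma 3.58.1 (trend) on log2 CPM with a prior count of 2. DESeq2 1.42.0, other scalings and filters, a replicate block, a sex term and leaving out each library were alternatives. The scripts were tested on simulated data. Symbols were found for 52083 of 55416 identifiers. The 10 factors and all gene lists were chosen with earlier results of these data known. Beyond the factors, the genes named were up to 4 called and 2 uncalled regulators per comparison by size of change, up to 6 targets, and the 3 closest in pattern to each factor, of which 1 is not reported here.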

Additional observations from a re-analysis of the deposited data

Results flagged for a closer look

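The level of Sox7 in KO hypoxia 3 was 4.46 CPM, against 2.67, 2.83 and 2.67 CPM in the other 3 KO libraries in hypoxia. Its gap to the nearest library took up 0.909 of the group's range, above Dixon's 95% critical value for 4 samples. This was 1 of 11 values tested in that group (the 10 factors and the mean of the endothelial markers), and chance flags about 1 in 20. The other factors of that library did not stand apart, with Sox17 at 12.0 CPM and Sox18 at 15.6 CPM.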

How the results depend on the processing

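By edgeR 524 genes passed between genotypes in normoxia, 2039 in hypoxia, 5 for hypoxia in flox, 202 for hypoxia in KO, 0 for the interaction (1635 at an unadjusted p under 0.05) and 426 for KO in normoxia against flox in hypoxia. Without the count filter these counts moved to 995 between genotypes in normoxia, 158 for hypoxia in flox, 833 for hypoxia in KO, 55 for the interaction and 959 for the last comparison, and with DESeq2, to 874, 67, 755, 5 and 803. A fit of only the libraries compared gave 19 for hypoxia in flox, 30 for hypoxia in KO and 927 for the last comparison. The 9 libraries with Y-linked transcripts gave 311 between genotypes in normoxia, 66 and 94 for hypoxia in flox and KO, and 10 for the interaction. With 1 library left out the counts ran from 250 to 397 between genotypes in normoxia, 1151 to 2490 in hypoxia, 0 to 45 for hypoxia in flox, 2 to 463 for hypoxia in KO, 0 to 1 for the interaction and 96 to 252 for KO in normoxia against flox in hypoxia. The factors called higher in KO numbered 4 to 7 in normoxia and 5 to 8 in hypoxia with 1 library left out, and 6 to 8 and 6 to 9 under the other alternatives. Of the further regulators, 6 of 37 rose in normoxia without KO normoxia 2 (13 of 36 with it) and 14 in hypoxia without KO hypoxia 1, and of the reported targets 12 and 20, counts added after the data were seen. Same-numbered libraries showed little common deviation (r from -0.0177 to 0.137 over 18 pairs, 1 of them over 0.1, and the own number correlating best in 5 of 12 libraries). The highest r was between flox normoxia 3 and KO hypoxia 3, both among the libraries with high Xist counts. These values do not show that the numbers pair the samples, and they cannot exclude it. With the replicate block, 1 gene passed the interaction, Erg with hypoxia in KO was no longer called (0.57, edgeR adjusted p = 0.0883), Ets1 was (0.47, 0.0369), and Tal1 against the markers in hypoxia was not (-0.40, limma adjusted p = 0.0789). With the core list of 5 markers, Tal1 in normoxia was not called (-0.45, limma adjusted p = 0.0504). For single factors, signs changed only for values that no fit called. With hypoxia in flox, Sox7 became 0.0038 with the block, 0.041 with a sex term and 0.11 in the Y-linked libraries, where Fli1 became 0.036. With hypoxia in KO, Foxq1 became 0.058 with the block and 0.038 with a sex term, and Sox17 -0.20 in the Y-linked libraries. In the interaction, Sox18 became 0.018 and Gata2 -0.0028 with a sex term, and Sox7 -0.049 and Gata2 -0.28 in the Y-linked libraries. Erg against the core markers in normoxia was at 0.0029. Leaving out 1 library gave both signs for 15 such values. With hypoxia in flox these were Sox7 (-0.20 to 0.11), Sox18 (-0.17 to 0.081), Tal1 (-0.14 to 0.27), Gata2 (-0.00081 to 0.37) and Fli1 (-0.0515 to 0.038), and with hypoxia in KO Foxq1 (-0.23 to 0.073), Sox18 (-0.23 to 0.0062) and Sox17 (-0.18 to 0.16). In the interaction they were Sox18 (-0.20 to 0.061), Gata2 (-0.18 to 0.19), Tal1 (-0.029 to 0.38) and Ets1 (-0.17 to 0.0065), and against the markers in normoxia Erg (-0.068 to 0.042), Foxq1 (-0.26 to 0.074) and Sox18 (-0.083 to 0.20). Apart from values against the markers, no genotype difference of the 10 factors within an oxygen level changed sign. The cause of these shifts was not tested.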
